A study of Mus musculus with 44 samples.

Results

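The 38 genes described here are induced by type I interferon. They were chosen by symbol from a fixed list, and all 38 were found among the 54146 genes of the count table, which covers 44 RNA-seq libraries of mouse astrocytes and microglia. The list names the genes by their place in the response, not by a threshold on values, but it was chosen with earlier results of these data known. All 38 had enough counts to be tested in each comparison. By role they are 5 sensors of nucleic acid (Ifih1, Ddx58, Dhx58, Zbp1, Eif2ak2), 3 transcription factors (Stat2, Irf9, Irf7), 5 genes of the OAS family (Oas1a, Oas2, Oas3, Oasl1, Oasl2), 4 of the IFIT family (Ifit1, Ifit2, Ifit3, Ifit3b) and 3 of the ISG15 system (Isg15, Usp18, Herc6). The others are 5 GTPases (Mx1, Mx2, Gbp2, Gbp3, Gbp7), the chemokine Cxcl10 and 12 other effectors (Bst2, Rsad2, Cmpk2, Rtp4, Trim30a, Parp9, Parp14, Ifi27l2a, Ifi35, Ifi44, Xaf1, Lgals3bp).

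Type I interferons are secreted proteins that cells release when they sense foreign or misplaced nucleic acid. They bind the receptor IFNAR1/IFNAR2, whose kinases JAK1 and TYK2 activate STAT2 and other factors; with IRF9 these form the complex ISGF3, which binds the interferon-stimulated response element (ISRE) in the promoters of target genes. In the brain both microglia and astrocytes respond to interferon, and the response is known from viral encephalitis, ageing and models of neurodegeneration.

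The libraries came from primary astrocytes and primary microglia that had been purified from mice and kept in media made for the human cells, with no treatment. Each cell type had 6 libraries of APOE33 cells, 6 of APOE44, 6 of Apoe WT (the unedited mouse gene) and 4 of Apoe KO (no functional Apoe). Mice named APOE33 and APOE44 carry the human APOE3 or APOE4 allele on both chromosomes in place of the mouse gene; the labels give no strain, age or driver. In each cell type APOE33 has 4 female and 2 male libraries, APOE44 has 3 and 3, WT has 3 and 3, and KO has 1 female library (replicate 1) and 3 male. The batch tag is 2 for all 12 WT libraries and 1 for the other 32, so for every comparison with WT, genotype and batch cannot be told apart; the labels describe RNA extraction as done together. Both sexes occur in every group, so each group held more than 1 mouse. Nothing in the labels tells whether libraries of the same sex in a group came from different mice or dishes. The p-values therefore reflect the spread among libraries alone, part of which may be technical. For APOE33 astrocyte replicate 1 the genotype tag reads WT while the title and source read APOE33, and it was kept with APOE33.

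Total counts ran from 83239599 to 143150569 per library and RIN, a score of RNA integrity, from 8.9 to 10. Summed over 18 markers, astrocyte genes reached 21500 to 30400 CPM (counts scaled to library size) in astrocyte libraries and 46.8 to 234 in microglia. The 18 microglial markers reached 17400 to 28400 CPM in microglia and 297 to 830 in astrocyte libraries, so both labels fit the defining genes of their cell type. In bulk RNA, fewer cells that respond and less RNA of a gene per cell cannot be told apart.

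Several members lie close together in families. Ifit1, Ifit2, Ifit3 and Ifit3b lie on chromosome 19, Oas1a, Oas2 and Oas3 on chromosome 5, and Gbp2, Gbp3 and Gbp7 on chromosome 3. Oasl1 and Oasl2 lie together at another place on chromosome 5. RefSeq promoter windows, 250 bases before to 50 after the start of a transcript, were at hand for 28 of the 38 members. The letters GAAANNGAAA, a core of the ISRE read on either strand, occurred in the windows of 17 of these 28 members, against 3.99% of all 27025 genes with a window (3.44% of all windows). The letters TTCNNNGAA, the GAS element of the interferon gamma response, occurred in 6 of 28, against 9.55% of genes (8.3% of windows). The stretches that follow show these matches in members that the results return to; capitals mark the bases covered by ISRE matches, which can overlap each other, sequences run 5′ to 3′ on the strand of the gene, and positions are GRCm38.p6.
Ifit1, chr19:34640770-34640828, plus strand: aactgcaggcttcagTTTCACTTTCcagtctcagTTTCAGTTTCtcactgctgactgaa
Ifit3, chr19:34583358-34583431, plus strand: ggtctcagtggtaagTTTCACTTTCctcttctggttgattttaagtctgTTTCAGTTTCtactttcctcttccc
Ifit3b, chr19:34607754-34607827, plus strand: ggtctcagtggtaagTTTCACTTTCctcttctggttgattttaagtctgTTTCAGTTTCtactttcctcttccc
Isg15, chr4:156200860-156200911, minus strand: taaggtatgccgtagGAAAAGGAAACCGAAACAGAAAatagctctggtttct
Oas1a, chr5:120907526-120907560, minus strand: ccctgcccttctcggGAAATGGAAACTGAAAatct
Oas3, chr5:120777710-120777749, minus strand: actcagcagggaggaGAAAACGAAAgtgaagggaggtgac
Bst2, chr8:71537572-71537617, minus strand: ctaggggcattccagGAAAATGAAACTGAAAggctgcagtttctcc
Stat2, chr10:128270261-128270300, plus strand: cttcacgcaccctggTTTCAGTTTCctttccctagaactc
Trim30a, chr7:104465205-104465244, minus strand: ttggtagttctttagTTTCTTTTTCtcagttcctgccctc
Cxcl10, chr5:92349078-92349117, minus strand: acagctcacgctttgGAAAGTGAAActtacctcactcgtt

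Isg15 held 3 overlapping ISRE matches, and Ifit1, Ifit3, Ifit3b, Oas1a and Bst2 held 2. The 74 bases shown for Ifit3 and Ifit3b are identical, as part of a duplicated gene whose transcripts of 1745 and 2000 bases align with 81.7% identity; 35.7% of the 75-base runs of Ifit3b also occur in Ifit3, so reads could be shared between these 2 genes and their separate values are uncertain. The windows of Ifit2, Ifi44, Oasl1, Oasl2, Herc6, Irf7, Irf9, Xaf1, Ifi35, Lgals3bp and Cmpk2 held no such letters, which says only that this string is not in those windows.

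The genes differed widely in level, and the order differed between the cell types. Per kilobase of exon, the highest mean level in microglia was that of Bst2 (tetherin, a membrane protein that holds budding virus at the cell surface) at 523 CPM per kb, followed by Lgals3bp, a secreted glycoprotein, at 119 and Ifi27l2a, a small hydrophobic protein, at 32.2. In astrocytes Ifit3 came first at 82.0 CPM per kb, then Bst2 at 61.2, Lgals3bp at 41.6, Ifit3b at 28.4 and Ifit2 at 23.9. The lowest were Oasl1 at 0.0747 and Ifi44 at 0.0773 CPM per kb in microglia, and Zbp1 at 0.128 and Oas3 at 0.142 in astrocytes.

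Microglia and astrocytes differed in which members they expressed most. In the 32 libraries of batch 1, 18 members were higher in microglia, where 40.3% of all 21647 genes were higher, and 13 were lower, where 50.6% of all genes were lower. The 4 members of the IFIT family, which bind viral RNA ends and block translation, were all lower in microglia, with a log2 fold change of -1.20 for Ifit2, -2.13 for Ifit1, -2.33 for Ifit3 and -3.42 for Ifit3b. Of the 5 GTPases, Gbp7 had a log2 fold change of -4.34 ± 0.24 (SE; adjusted p = 1.17e-15), Gbp3 of -3.49 and Gbp2 of -1.77, all lower in microglia, while the dynamin-like Mx1 was higher there. Of the OAS family, which make an oligoadenylate messenger on sensing double-stranded RNA or, in the OASL proteins, tune RNA sensing, Oas1a was higher in microglia by 4.67 ± 0.30 (adjusted p = 4.33e-14), Oas3 by 3.69 and Oas2 by 2.29, and Oasl1 was lower (-1.53).

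Among the nucleic acid sensors, Zbp1, which reads Z-form nucleic acid and can start necroptosis, was higher in microglia by 4.26 (adjusted p = 5.56e-14), as were Dhx58 (LGP2) by 2.21 and Ifih1 (MDA5) by 0.58. Ddx58 (RIG-I) was lower (-0.63). Bst2 was higher in microglia by 3.63 ± 0.17 (adjusted p = 2.39e-17), the ADP-ribosyltransferase gene Parp14 by 2.36 (adjusted p = 6.65e-17) and Ifi27l2a by 4.36 (adjusted p = 9.86e-15). Every astrocyte library lay below every microglial library for 3 members, Bst2, Oas1a and Parp14 (16% of all genes). Every astrocyte library lay above every microglial library for 5, Cmpk2, Gbp2, Gbp3, Gbp7 and Ifit3b (40.0% of all genes).

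The WT libraries, which the batch 1 test did not use, gave 15 members higher in microglia (background 41.6% of 19331 genes) and 15 lower (47.9%). Parp14 was higher by 2.34 (adjusted p = 4.87e-11), Bst2 by 3.63 (adjusted p = 1.97e-10) and Oas1a by 5.24 (adjusted p = 5.51e-10). Lower were Gbp7 (-4.92, adjusted p = 2.92e-10), Ifit2 (-3.48, adjusted p = 7.36e-10) and Cmpk2, a mitochondrial nucleotide kinase (-2.31, adjusted p = 3.35e-09). The log2 difference of Ifit2 was thus -3.48 in WT and -1.20 in batch 1. Over all genes the median log2 difference was -0.247 in batch 1 and -0.132 in WT, and these fold changes are relative to the whole library.

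**Figure D1:**
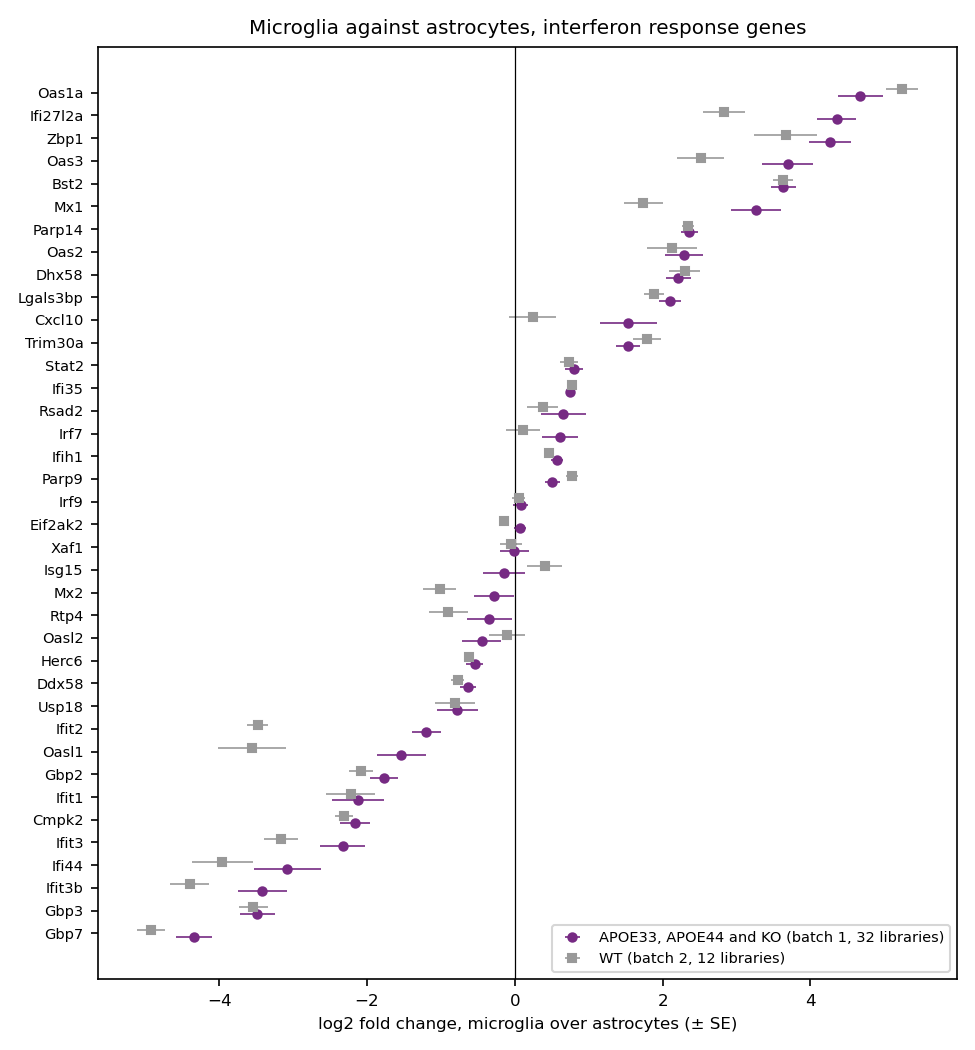
Log2 fold change of each of the 38 genes, microglia over astrocytes, with SE bars, in the 32 libraries of batch 1 (circles) and in the 12 WT libraries (squares). Oas1a, Ifi27l2a and Zbp1 lie at the microglial end (4.67, 4.36 and 4.26 in batch 1) and Gbp7, Gbp3 and Ifit3b at the astrocyte end (-4.34, -3.49 and -3.42).

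Against a background of 40.3% of all genes higher in microglia and 50.6% lower, of 7 ligands and receptors 5 were higher and 2 lower, with Ifnar1 higher by 3.35 (adjusted p = 3.04e-34) and Ifngr2 by 3.75 (adjusted p = 1.32e-36). Of the nucleic acid sensing genes that are no members, 19 of 20 were higher in microglia and 1 lower, and of the signalling genes 13 of 15 were higher and 1 lower. Of the brakes on the response 9 of 12 were higher and 2 lower. Of the 80 other interferon-induced genes 58 were higher and 19 lower. Tmem173, the adaptor STING, was higher by 6.13 and the kinase gene Tyk2 by 2.84.

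In microglia, all 38 genes had a higher fitted level in APOE44 than in APOE33, but 0 passed the test. The background was 0.84% of 17143 genes called in either direction, and 48.6% of all genes had a positive sign. The members' log2 fold changes ran from 0.10 to 1.43 with a median of 0.60, against -0.004 for all genes; DESeq2 called 3, and the unadjusted p was under 0.05 for 18 of the 38, against 11.9% of all genes. By role, the OAS family had a median of 0.93, the IFIT family 0.85, the ISG15 system 0.69, the mixed group of other effectors 0.48, the GTPases 0.34, the sensors 0.33 and the 3 transcription factors 0.23. Counts from the mitochondrial genome made up 1.5% to 1.72% of the APOE44 and 0.906% to 1.39% of the APOE33 microglial libraries, without overlap, and within groups this share correlated with the members' mean at r = 0.44 over 22 microglial libraries; its part in these values was not tested. Leaving out any of the 16 libraries in turn gave 0 calls and at least 37 positive signs, which cannot show a dependence on more than 1 library. In male libraries the median of the members' mean log2 level was 3.09 in APOE33 (n = 2) and 4.41 in APOE44 (n = 3). In female libraries it was 4.02 (n = 4) and 3.89 (n = 3), the opposite direction, and this contrast was not tested. Members moved together from library to library, so their signs and p-values are not independent.

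Ifi27l2a stood at 2.98 CPM in the lowest, 14.0 in the median and 16.3 in the highest APOE33 microglial library, and at 15, 26.9 and 38.9 in APOE44. Its groups overlapped by a narrow margin, the lowest APOE44 library lying between the median and the highest APOE33 library. The log2 fold change was 1.32 ± 0.34 (adjusted p = 0.113; 0.00944 by DESeq2).

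Oas2 ran from 0.946 through a median of 3.19 to 5.44 CPM in APOE33 and from 2.69 through 6.45 to 10.7 in APOE44 (log2 fold change 1.29 ± 0.40, adjusted p = 0.187; 0.0367 by DESeq2). Oas3 ran from 1.44 through 6.40 to 8.38 CPM in APOE33 and from 4.95 through 13 to 19.6 in APOE44 (1.32 ± 0.43, adjusted p = 0.219). For both OAS genes the median APOE44 library lay above the highest APOE33 library while the lowest lay inside the APOE33 range. No member separated the APOE33 and APOE44 microglia completely.

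**Figure D2:**
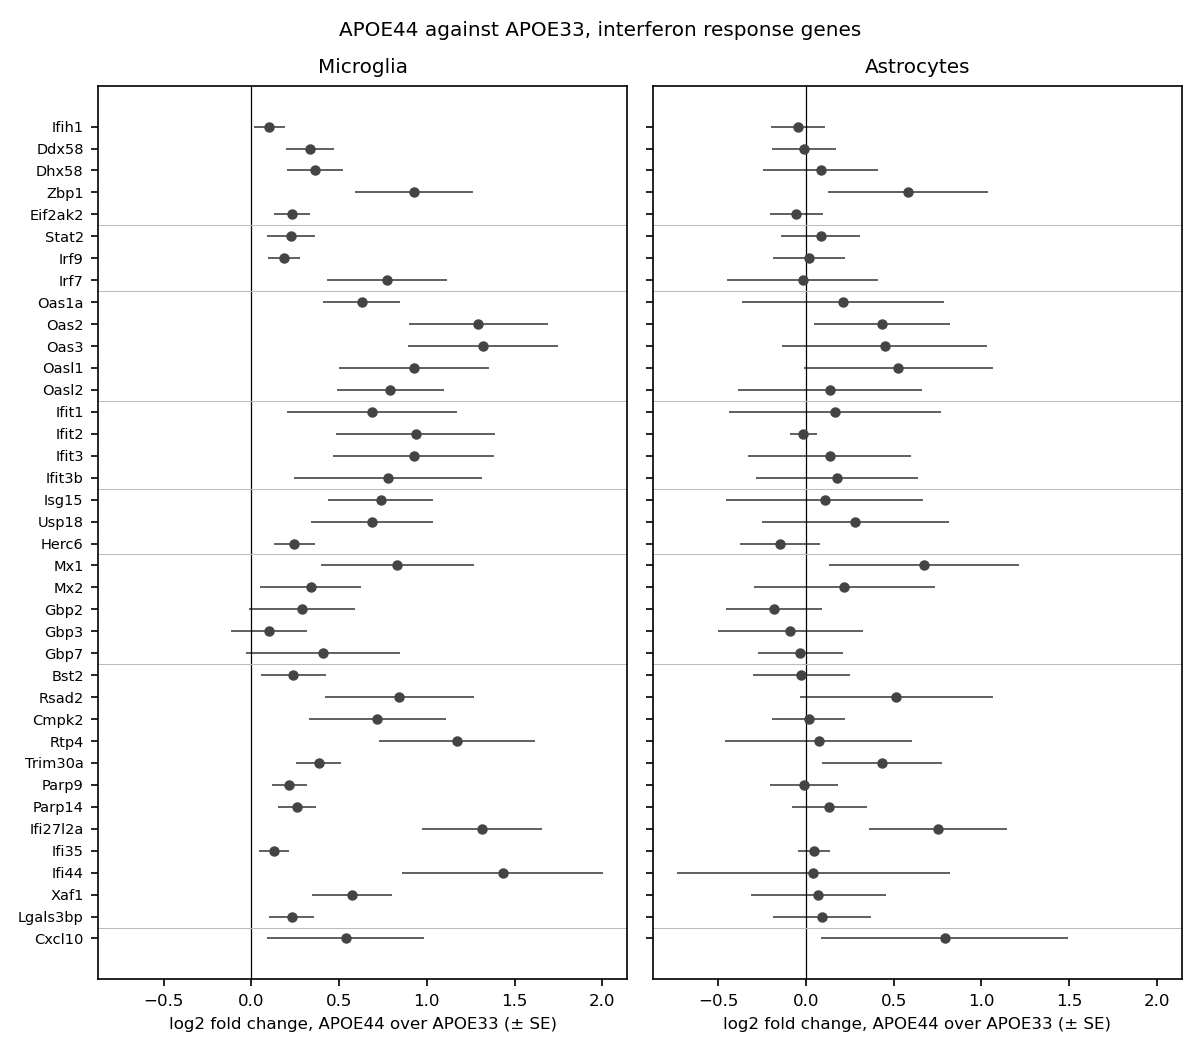
Log2 fold change of APOE44 over APOE33 for each of the 38 genes, with SE bars, in microglia (left) and astrocytes (right), 6 libraries a group. All 38 points lie to the right of 0 in microglia and 27 do in astrocytes; none passed the test in either cell type.

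The astrocytes gave a smaller difference whose direction rested on single libraries. Of 38 members 27 were positive, with a median of 0.088 and a range of -0.18 to 0.79; 0 were called (background 0.703% of 20481 genes), DESeq2 also called 0, and an unadjusted p under 0.05 was found for 0. Without APOE44 replicate 6, the library with the highest level of all 38 members in its group, 3 of 38 were positive, and without the sex term 13 were. Ifi27l2a ran from 0.367 through a median of 0.671 to 2.54 CPM in APOE33 astrocytes and from 0.487 through 1.23 to 3.10 in APOE44 (0.75 ± 0.39, adjusted p = 0.572). Zbp1 ran from 0.142 through 0.289 to 1.17 CPM in APOE33 and from 0.277 through 0.333 to 1.71 in APOE44 (0.58 ± 0.46, adjusted p = 0.745), and -0.04 without APOE44 replicate 6. Trim30a, a negative regulator of Toll-like receptor signalling, ran from 14.1 through 34.2 to 74.1 CPM in APOE33 and from 25.2 through 35.7 to 79.3 in APOE44 (0.43 ± 0.34, adjusted p = 0.747). In all 3 genes the groups overlapped over most of their range.

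The difference between the cell types in this APOE44 effect was tested directly. The effect was more positive in microglia for 36 of 38 members, by a median of 0.399, yet 0 passed (background 0.296% of 21647 genes), by DESeq2 0 passed too, and 1 had an unadjusted p under 0.05. The smallest p belonged to Ifit2 (0.96 ± 0.46, adjusted p = 0.435), Cmpk2 (0.70 ± 0.45, adjusted p = 0.596) and Rtp4, a chaperone that restricts flaviviruses (1.10 ± 0.72, adjusted p = 0.603). An APOE44 effect that differs between the cell types was therefore not shown for any member.

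In KO microglia 3 members rose above APOE33 and none fell, where 10.9% of all genes were called higher and 11.9% lower; 7 had an unadjusted p under 0.05, against 34.3% of all genes. The shares of members called and of low p were thus below those of all genes. The members had no common direction, with 21 of 38 positive and a median of 0.018. Without the sex term 2 were called higher and 2 lower, by DESeq2 5 and 1, and with no low-count filter 0. Bst2 stood at 608, 719, 671 and 567 CPM in KO replicates 1 to 4 and at 270, 447 and 581 (lowest, median, highest) in APOE33. Of the 4 KO libraries 3 lay above every APOE33 library (0.72 ± 0.22, adjusted p = 0.0281). Ifi44, an interferon-induced cytoplasmic protein, stood at 0.633, 1.39, 1.46 and 0.413 CPM in KO against 0.0364, 0.293 and 0.427 in APOE33 (2.06 ± 0.67, adjusted p = 0.0381); KO replicate 4 lay inside the APOE33 range. Stat2, a subunit of ISGF3, stood at 88.8, 90.2, 91.5 and 73.0 CPM in KO against 55.9, 67.9 and 81.9 in APOE33 (0.46 ± 0.16, adjusted p = 0.0498), with KO replicate 4 again inside. All 3 calls were lost without APOE33 replicate 3 or without KO replicate 1, 2 or 3, and the count was 1 without APOE33 replicate 1 or 6 or APOE44 replicate 6.

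Other members moved without passing. The OAS family split within itself, Oas3 at 1.27 and Oas2 at 1.24 against Oasl1 at -1.25, and the chemokine Cxcl10, which draws T cells through CXCR3, stood at -1.39. In the same KO microglia the 9 markers of border macrophages and monocytes summed to 1370 to 1560 CPM, above the 894 to 1320 of every other microglial library, and their part in these values was not tested. Markers of T, natural killer, B and dendritic cells summed to at most 9.51 CPM in any microglial library, with Cd3e, Nkg7 and Gzmb at 0 in all 4 groups.

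Against APOE44, 6 members fell in KO microglia and none rose (13.4% of genes lower, 13.6% higher), 35 of 38 were negative, and the median was -0.422; 15 had an unadjusted p under 0.05, near the share of all genes (38.2%). Oasl1 stood at 0.041, 0.101, 0.116 and 0.056 CPM in KO, all below the lowest APOE44 library (-2.17 ± 0.53, adjusted p = 0.00651). These KO levels are near 0, so the size of this difference is imprecise. With so few counts in KO, Oasl1 passed the low-count filter only through groups where it was higher. Its call and its lack of overlap are therefore given as a description. Cxcl10 stood at 0.643, 2.1, 1.7 and 0.966 CPM in KO and from 2.45 to 9 in APOE44, again without overlap (-1.93 ± 0.51, adjusted p = 0.0128). The others that fell were the helicase gene Ddx58 (-0.44 ± 0.15, adjusted p = 0.0456), Trim30a (-0.45 ± 0.14, adjusted p = 0.0326), Parp9, which partners the ubiquitin ligase DTX3L (-0.41 ± 0.11, adjusted p = 0.0139), and Ifi35, a partner of NMI (-0.31 ± 0.10, adjusted p = 0.027). KO lay below APOE44 without overlap for 6 members, Oasl1, Cxcl10, Ddx58, Trim30a, Parp9 and Herc6, an E3 ligase that attaches ISG15, as it did for 16.4% of all genes. The count fell to 1 without KO replicate 1 and to 3 without APOE44 replicate 1 or 3 or KO replicate 4, and rose to 11 without APOE33 replicate 6 or APOE44 replicate 5. The KO group enters both comparisons, so the 2 sets of values are not independent.

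In KO astrocytes only Ifit2 was called against APOE33 and against APOE44. Ifit2 stood at 72.2, 75.5, 75.9 and 73.8 CPM in KO, below the lowest library of APOE33 (77.6, median 90.5, highest 105), of APOE44 (80.4, 85.8, 104) and of WT (103, 115, 122). It was the only member below without overlap in these comparisons, where 6.13%, 9.77% and 17.9% of all genes were. The log2 fold change was -0.28 ± 0.09 against APOE33 (adjusted p = 0.0424) and -0.27 ± 0.09 against APOE44 (adjusted p = 0.0374). The background against APOE33 was 8.83% of genes lower and 8.37% higher, with 3 members at an unadjusted p under 0.05 (32.6% of all genes); against APOE44 it was 11.8% lower and 11.0% higher, with 1 (36.2%). Both calls were lost without any of KO replicates 1 to 4 or APOE44 replicate 1 or 3, the first also without APOE33 replicate 1, 2 or 3 and the second without APOE44 replicate 2 or 6. Without APOE33 replicate 2 the count against APOE33 was 3, all of them higher in KO, so Ifit2 was not among them (adjusted p = 0.0586).

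The rest of the astrocyte KO values were spread to both sides of 0. Oas3 stood at 1.46, Ifi27l2a at 1.25, Oas1a at 1.18 and Oas2 at 1.16 against APOE33, and Cxcl10 at -1.11, none of them called. Oas3 was at 1.54, 1.3, 1.23 and 1.5 CPM in KO astrocytes and at 0.269, 0.348 and 2.76 (lowest, median, highest) in APOE33, where a single high library, replicate 2, made the groups overlap. A difference between the cell types in the KO effect was called for 0 members (background 12.7% of genes, 0 by DESeq2, 1 with an unadjusted p under 0.05 against 26.1% of all genes). Without the sex term 1 was called, Ifi44 (3.70, adjusted p = 0.0252). The smallest p belonged to Ifi35 (-0.33 ± 0.16, adjusted p = 0.186), Ifi44 (2.36 ± 1.27, adjusted p = 0.246) and the guanylate-binding protein gene Gbp2 (0.84 ± 0.52, adjusted p = 0.321).

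**Figure D3:**
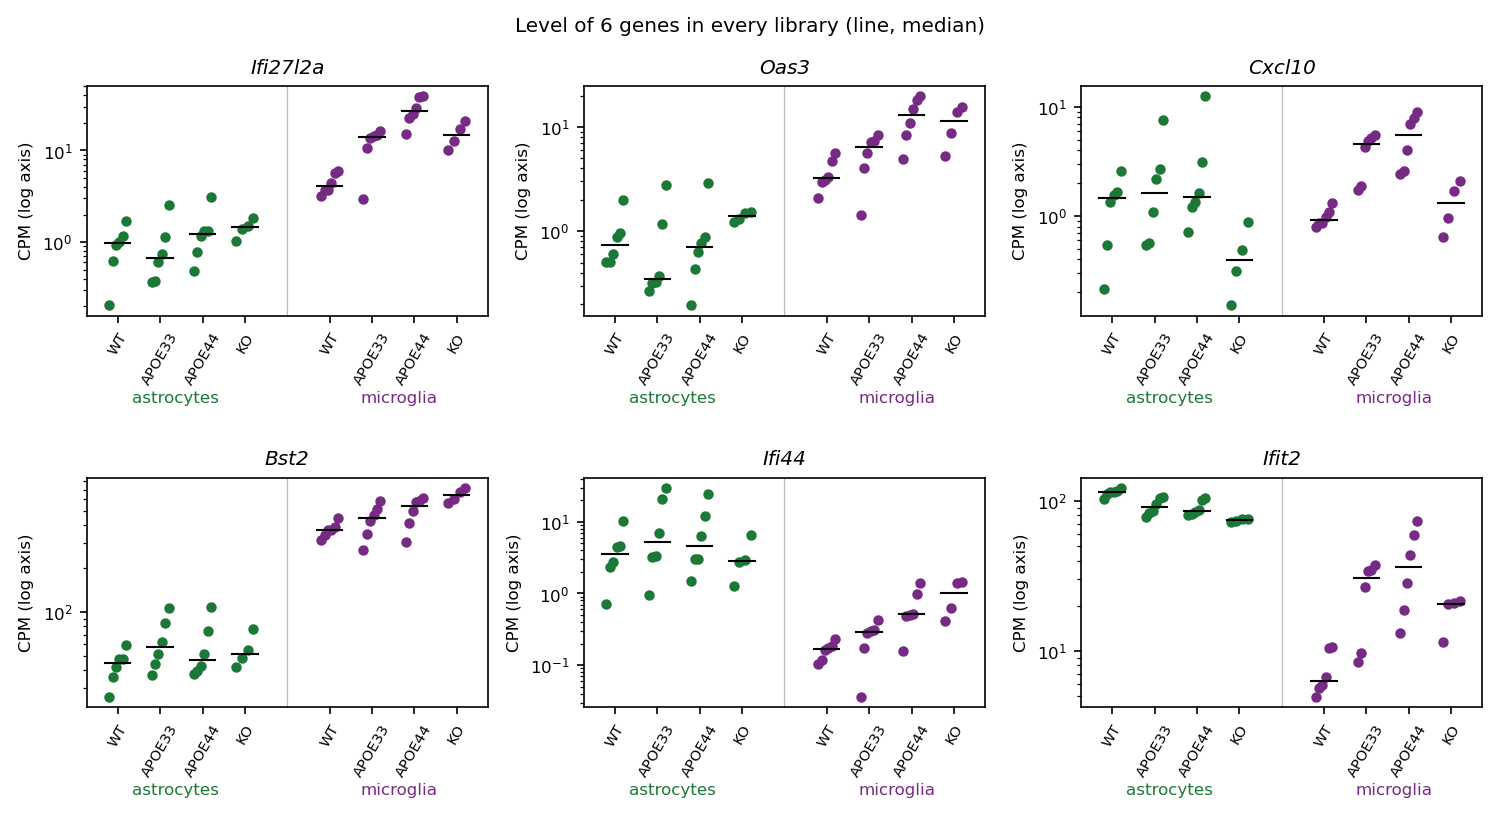
Level in CPM, on a log axis, of 6 members in every library, by genotype, in astrocytes (green) and microglia (purple), with a line at the median. Ifit2 in astrocytes stays between 72.2 and 122 CPM, lowest in the 4 KO libraries, while in microglia it runs from 4.94 to 73.7.

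Fitted levels of at least 37 of the 38 members were lower in WT microglia than in each other genotype. Against WT, where genotype cannot be told apart from batch, 35 members were higher in APOE44 (background 22.3% higher, 23.1% lower), 16 in APOE33 (22.2% and 22.6%) and 18 in KO (20.9% and 21.5%), and none was lower. The 3 comparisons share the 6 WT libraries. Median log2 differences were 1.191 for APOE44, 0.504 for APOE33 and 0.640 for KO, and the 3 members not called in APOE44 were Gbp3, Gbp7 and Ifih1. Groups lay above WT without overlap for 15 members in APOE44 (14.2% of all genes), 10 in KO (12.7%) and 4 in APOE33 (13.2%). Microglial markers summed to 17400 to 20700 CPM in WT and to 22000 to 28400 in the other microglia, and their part in these values was not tested.

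Lgals3bp had the smallest adjusted p in all 3, though not the largest difference, with levels of 166 ± 17.2 CPM in WT (SD, n = 6), 376 ± 62.4 in APOE33 (n = 6), 434 ± 79.8 in APOE44 (n = 6) and 400 ± 29.1 in KO (n = 4). Its log2 difference from WT was 1.16 ± 0.12 in APOE33 (adjusted p = 3.83e-07), 1.38 in APOE44 (adjusted p = 5.06e-08) and 1.36 in KO (adjusted p = 2.1e-07). In APOE33 the next were Oasl1 at 2.59 ± 0.47 (adjusted p = 0.000107), Cxcl10 at 1.93 ± 0.39 (adjusted p = 0.000464), Dhx58 at 0.66, Mx2 at 1.19 and Irf7, the factor that amplifies interferon genes, at 1.33 (adjusted p = 0.000499, 0.00055 and 0.00145). In APOE44 they were Oasl1 at 3.53 (adjusted p = 2.67e-06), Ifi27l2a at 2.66 ± 0.32 (adjusted p = 2.82e-06), Dhx58 at 1.03, Irf7 at 2.11 and Irf9, the DNA-binding subunit of ISGF3, at 0.54 (adjusted p = 4.51e-06, 1.8e-05 and 2.22e-05). In KO they were Ifi27l2a at 1.92, Stat2 at 0.74, Ifi44 at 2.64, Bst2 at 0.88 and Oas3 at 1.82 (adjusted p = 0.00021, 0.0003, 0.000457, 0.00088 and 0.00185). Oasl1 stood at 0.0195 to 0.0616 CPM in WT microglia, a few counts per library, so the size of its differences is not reliable. With so few counts in WT, it passed the low-count filter only through groups where it was higher.

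By role, all 4 IFIT genes were higher than WT in APOE33 and APOE44 microglia and Ifit2 and Ifit3 were in KO. All 5 OAS genes were higher in APOE44, 3 in KO and only Oasl1 in APOE33. All 12 of the other effectors were higher in APOE44, against 5 in KO and 3 in APOE33. Of the sensors 4 of 5 were higher in APOE44, 3 in KO and 2 in APOE33, and the kinase gene Eif2ak2 (PKR), which halts translation on double-stranded RNA, was called in APOE44 and KO. Cxcl10, at 0.789 to 1.33 CPM in WT, was higher in APOE33 and APOE44 but not called in KO. These are counts of calls, and the differences between them were not tested beyond the comparisons within batch 1.

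In astrocytes fewer members were called against WT than in microglia, while the median log2 differences were 0.489 for APOE33, 0.655 for APOE44 and 0.506 for KO; the difference between the cell types was not tested. There 6 members were higher and 1 lower in APOE33 (background 20.1% higher, 18.9% lower), 7 and 1 in APOE44 (20.6% and 21.1%), and 4 and 1 in KO (19.4% and 18.9%), so the shares of members called lay below the background. Border macrophage markers summed to 37.5 to 112 CPM in WT astrocytes against 7.32 to 35.6 in the others, and oligodendrocyte lineage markers to 171 to 193 against 227 to 397, both without overlap; their part in these values was not tested. The lower member was Ifit2 each time, at -0.28 in APOE33 (adjusted p = 0.00212), -0.30 in APOE44 (adjusted p = 0.00109) and -0.56 ± 0.08 in KO (adjusted p = 9.41e-06). WT was thus the highest group for Ifit2 in astrocytes and the lowest in microglia (4.94 to 10.6 CPM).

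Lgals3bp was again higher in all 3, by 1.10 in APOE33 (adjusted p = 0.00233), 1.20 in APOE44 (adjusted p = 0.000955) and 1.04 in KO (adjusted p = 0.00792). Cmpk2 at 0.66 (adjusted p = 0.0117), Irf7 at 1.15 (adjusted p = 0.0335), Ddx58 at 0.44 and Dhx58 at 0.87 (adjusted p = 0.043 for both) rose in APOE33, as did the ubiquitin-like modifier Isg15. In APOE44 Cmpk2 at 0.66 (adjusted p = 0.0103), Dhx58 at 0.95 (adjusted p = 0.0241), Isg15 at 1.46 (adjusted p = 0.0315), Irf7 at 1.12 (adjusted p = 0.0327), Ddx58 and the ISG15 protease gene Usp18 rose. In KO it was Ifi35 at 0.30 (adjusted p = 0.0202), Oas2 at 1.23 (adjusted p = 0.0362) and Oas1a at 1.62 (adjusted p = 0.0382). The count in APOE44 was 20 without APOE44 replicate 4 and 3 without WT replicate 1 or 6 or APOE44 replicate 6. In KO it was 13 without KO replicate 1 and 2 without WT replicate 6 or KO replicate 3 or 4. In APOE33 it ran from 3 (without WT replicate 1, 4 or 6 or APOE33 replicate 1 or 2) to 10 (without APOE44 replicate 6).

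The spread behind these tests was largely shared: members went up and down together from library to library within a group. The mean of log2(CPM + 0.5) over the 38 genes spanned 4.01-fold among the 6 APOE33 astrocyte libraries, 3.65-fold in APOE44 and 2.88-fold in WT astrocytes, and 1.54-fold among the 4 KO astrocytes. In microglia it spanned 2.43-fold in APOE44, 2.1-fold in APOE33, 1.47-fold in KO and 1.27-fold in WT. The mean was 4.063 ± 0.773 (SD, n = 6) in APOE33 and 4.030 ± 0.730 (n = 6) in APOE44 astrocytes, 3.690 ± 0.279 (n = 4) in KO and 3.555 ± 0.507 (n = 6) in WT. In microglia it was 3.668 ± 0.468 in APOE33, 4.112 ± 0.501 in APOE44, 3.603 ± 0.249 in KO and 3.091 ± 0.156 in WT.

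In single libraries nearly the whole list lay at an extreme. WT astrocyte replicate 3 was the highest of its 6 libraries for all 38 members and replicate 6 the lowest for all 38. APOE44 astrocyte replicate 6 was the highest for all 38 and replicate 4 the lowest for 25. APOE33 astrocyte replicate 2 was the highest for 32 and replicate 6 the lowest for 35. In microglia, APOE44 replicate 6 was the highest for 26 and replicate 5 the lowest for 33, APOE33 replicate 6 was the lowest for 27, and KO replicate 4 the lowest of its 4 libraries for 31.

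**Figure D4:**
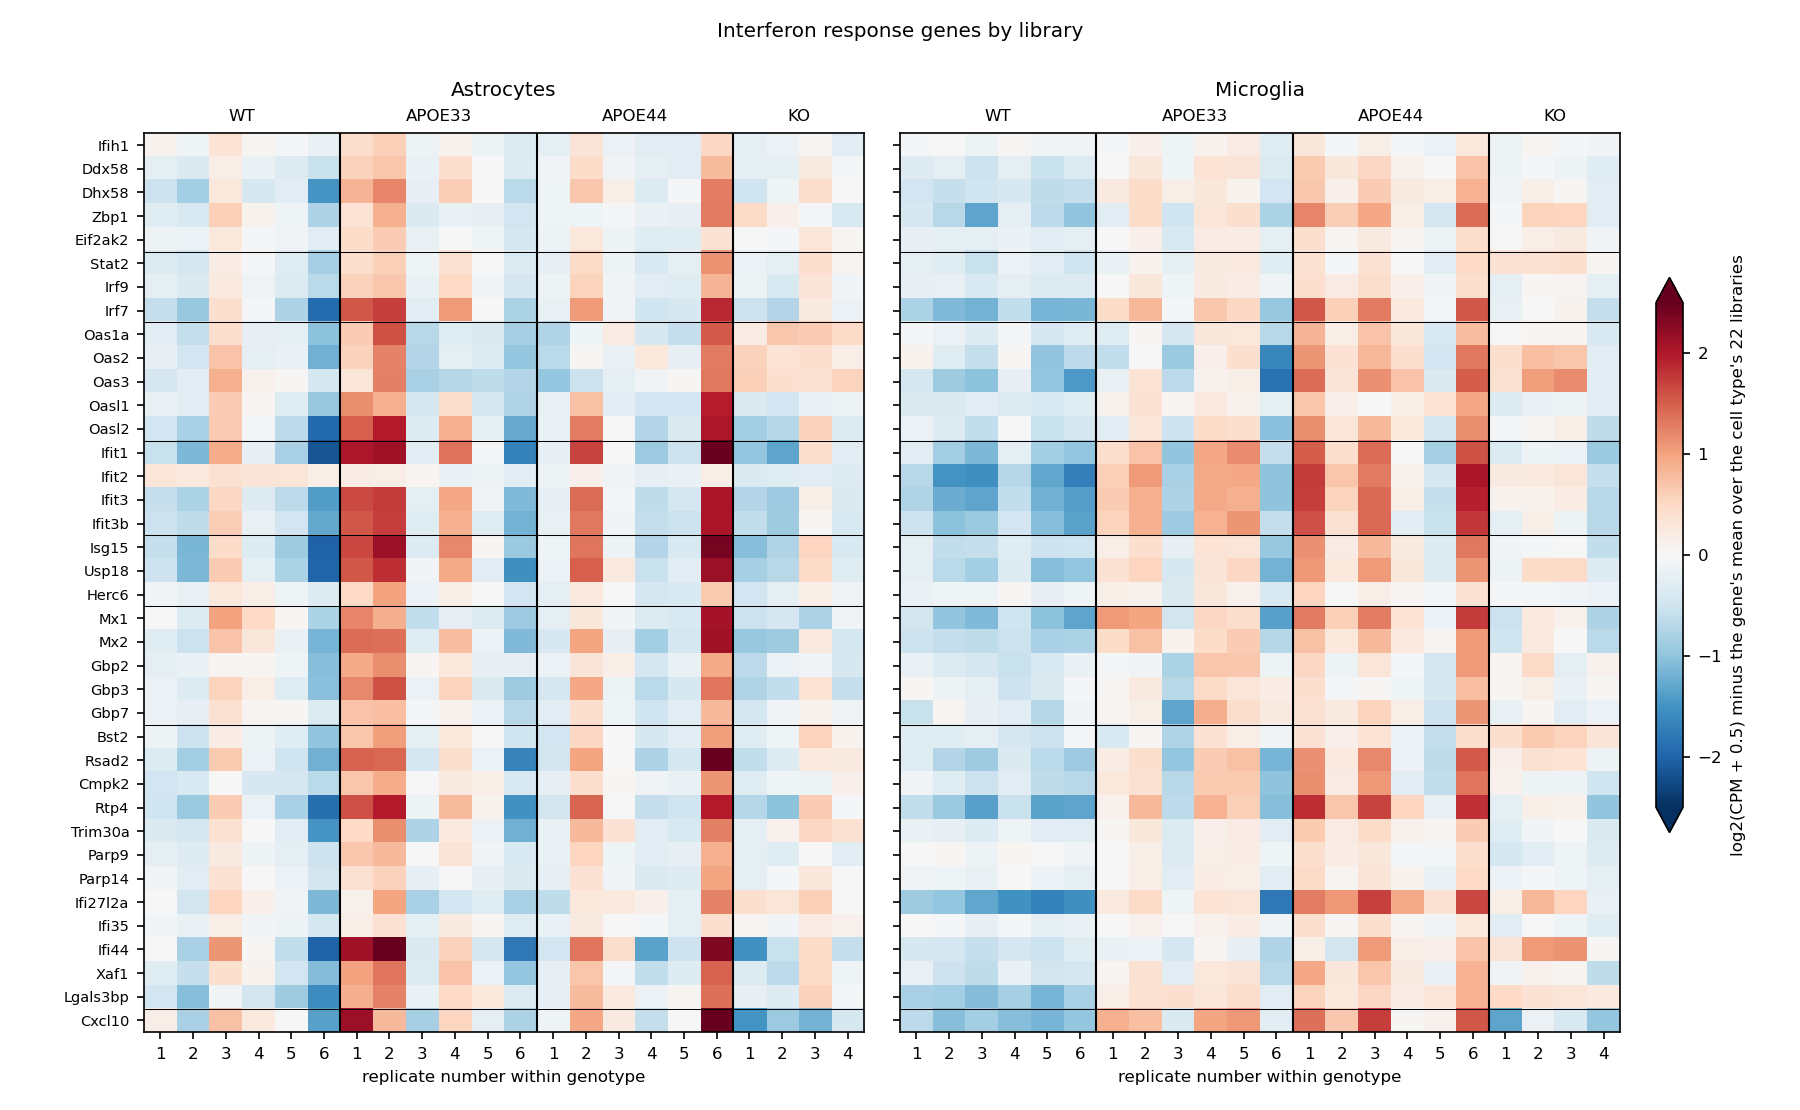
Log2(CPM + 0.5) of each member minus its mean over the 22 libraries of the cell type, astrocytes left and microglia right, 1 column per library, genes ordered by role. Whole columns share a colour, as in WT astrocyte replicate 6 (lowest of its group for 38 of 38 genes) and APOE44 astrocyte replicate 6 (highest for 38 of 38).

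Over the 22 astrocyte libraries, deviations of a member from its group means correlated with the mean of the other members at a median r of 0.967 (0.753 to 0.986 over the 38). In the 22 microglial libraries the median was 0.93 (0.582 to 0.983), lowest for Oasl1, Gbp7 (0.618) and Ifi44 (0.636), which were among the least abundant. For all other genes the median r with the members' mean was 0.04 in astrocytes and 0.06 in microglia, with 95th percentiles of 0.537 and 0.456. These correlations share libraries, scaling and depth and are given as a description. Libraries of the same genotype and number in the 2 cell types had r = 0.514 over 22 pairs and the same sign in 14; such libraries also share the labelled sex and may come from the same mouse, which the labels do not say.

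The range differed by gene. Over the astrocyte libraries the highest level was 81.9 times the lowest for Cxcl10, 71.2 times for Zbp1 and 41.3 times for Ifi44, but 1.69 times for Ifit2, 1.82 times for Ifi35 and 1.94 times for Ifih1. Ifit2 followed the others in direction (r = 0.867) with an SD of deviations of 0.124 on the log2 scale, against 1.142 for its neighbour Ifit1. In microglia Ifit2 had an SD of 0.709 and Ifit1 of 0.683.

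The genes most like the members in each cell type, by the same correlation over 22 libraries came largely from the pathway lists, which hold 9 of the 10 in microglia and 7 of the 10 in astrocytes. In microglia they included Adar (r = 0.959), Irgm1, Sp100, Trim30d, Oas1g, Ifi206, Ifi211, Ifi203 and Slfn5 (r = 0.933). In astrocytes they included Irgm2 (r = 0.985), Gm4951, Phf11d, Ddx60, Dtx3l, Iigp1, Rnf213, Oas1b and Igtp (r = 0.971). Dtx3l overlaps Parp9, and Irgm2 overlaps Igtp, so reads of these could be shared.

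Markers of other cells moved with the members in some astrocyte libraries. Summed microglial markers were highest in APOE33 replicate 2 (830 CPM), WT replicate 3 (791 CPM) and APOE44 replicate 6 (746 CPM), the libraries with the highest members in their groups. In KO astrocytes they were lowest, at 389 CPM, in replicate 3, the library highest for 30 of 38 members. Over 22 astrocyte libraries the correlation of deviations with the members' mean was 0.46 for microglial markers, 0.6 for the 8 endothelial markers (8.23 to 28.4 CPM in sum), 0.03 for border macrophage markers and 0.37 for RIN. It was also 0.46 for oligodendrocyte lineage markers, 0.35 for ependymal, 0.3 for mural and -0.01 for neuronal markers. For astrocyte markers it was -0.4 and for total counts 0.37. In 22 microglial libraries it was 0.52 for border macrophage markers, -0.23 for microglial markers, 0.26 for astrocyte markers and 0.43 for RIN. There it was -0.33 for endothelial, -0.26 for ependymal, 0.22 for neuronal and 0.12 for oligodendrocyte lineage markers. The highest astrocyte library stood above the highest microglial library for some members, such as Ifit1 (182 against 18.6 CPM) and Isg15 (44.3 against 16.6). It stood below for others, such as Bst2 (108 against 719 CPM) and Oas1a (4.2 against 43.6). The share of all genes on either side was not computed. For the members that are mainly microglial, Oas1a, Oas3, Zbp1 and Ifi27l2a, the part of microglial RNA in the astrocyte values was not tested.

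Sex moved with the members too, a comparison made after seeing the data. In astrocytes all 38 were higher in female than in male libraries, with a median log2 difference of 1.003, and the unadjusted p was under 0.05 for 36 (3.48% of all genes), but 0 were called (background 0.0752% of 21287 genes); DESeq2 called 4. The 11 female astrocyte libraries had a mean log2 level of 3.42 to 5.29 (median 4.22) and the 11 male libraries 2.78 to 4.07 (median 3.54). Within batch 1 all 38 were positive with 31 at an unadjusted p under 0.05, and within the WT libraries of batch 2, 37 were positive with 25. The smallest p belonged to Ifi35 (0.30 ± 0.07, adjusted p = 0.282; 0.0235 by DESeq2, and 0.0311 by edgeR without KO replicate 1), Oas2 (1.29 ± 0.32, adjusted p = 0.627; 0.0309 by DESeq2) and Zbp1 (1.41 ± 0.39, adjusted p = 0.902).

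The direction was not the same in every genotype. In WT astrocytes the 3 female libraries (3.58 to 4.31) lay above the 3 male libraries (2.78 to 3.52). In APOE33 astrocytes the 4 female libraries (3.7 to 5.06) also lay above the 2 male libraries (3.05 to 3.55). In APOE44 the female libraries spanned 3.42 to 5.29 around the males at 3.54 to 3.84, and the female KO library (3.45) lay below the 3 males (3.51 to 4.07). In microglia 37 of 38 were higher in females by a median of 0.259, with 0 called (background 0.0664% of 18079 genes), 0 by DESeq2 and 2 with an unadjusted p under 0.05. There the smallest p belonged to Ifit2 (0.67 ± 0.31), Oas2 (0.58) and Ifit3 (0.56), all with an adjusted p of 0.997. The 4 female APOE33 microglia (3.75 to 4.05) lay above the 2 males (2.98 to 3.19), while in APOE44 microglia the sexes overlapped (3.77 to 4.68 and 3.40 to 4.52). Sex was a term of every genotype fit.

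**Figure D5:**
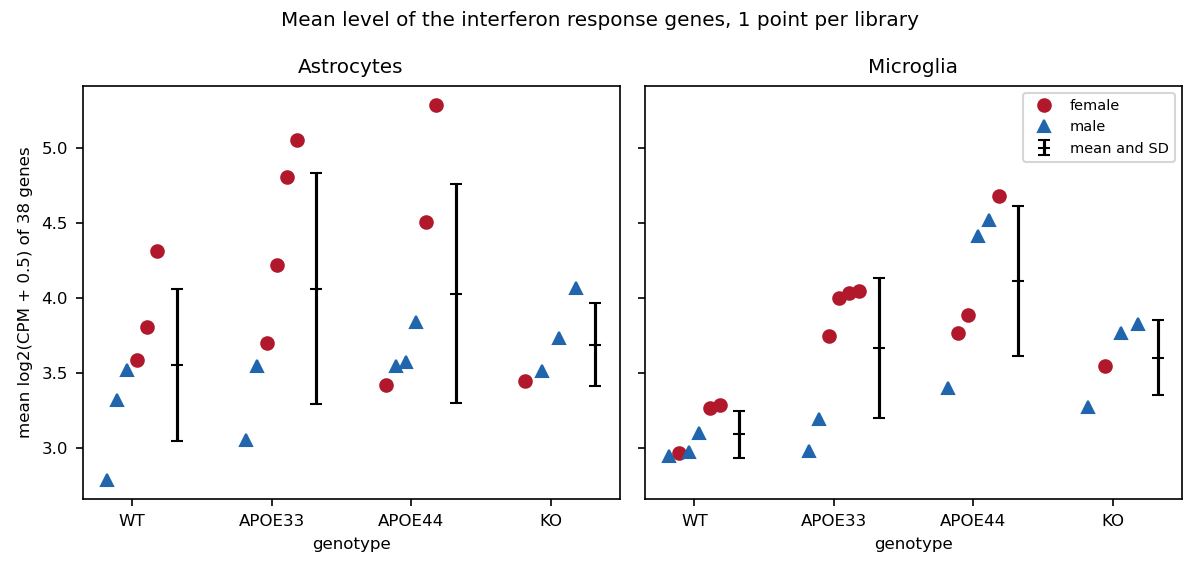
Mean log2(CPM + 0.5) over the 38 genes, 1 point per library (female circles, male triangles), by genotype, with mean and SD beside each group (n = 6, KO n = 4). WT microglia sit between 2.95 and 3.29, while APOE33 astrocytes spread from 3.05 to 5.06.

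The wider pathway showed how the members' neighbours behaved in the same comparisons. For APOE44 against APOE33 microglia, 0 of 6 ligands and receptors, 0 of 20 sensing genes, 0 of 15 signalling genes and 0 of 12 brakes were called. Of 78 other interferon-induced genes 1 was called, Ifi208, which was higher (adjusted p = 5.58e-05). No fold is given because it was near 0 in APOE33. It thus passed the low-count filter only through groups where it was higher, and its call is given as a description. In astrocytes 0 of 7, 0 of 20, 0 of 15, 0 of 12 and 0 of 76 were called. Of all genes 0.84% were called in microglia and 0.703% in astrocytes. The 78 other induced genes in microglia had a median of 0.25 with 66 positive, and the 76 in astrocytes 0.09 with 61 positive.

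In KO microglia against APOE33 the 6 ligands and receptors had 0 higher and 2 lower, the interferon gamma receptor genes Ifngr2 (-0.17, adjusted p = 0.00231) and Ifngr1 (-0.23, adjusted p = 0.0192). Of 20 sensing genes 3 rose and 3 fell, with the kinase gene Ikbke at 0.76 (adjusted p = 0.000299) and the RIG-I adaptor Mavs at 0.23 among those that rose. Of 15 signalling genes 1 rose, Nlrc5 at 0.51 (adjusted p = 0.000901), and 3 fell, among them Stat3 (-0.21). Of 12 brakes 1 rose and 2 fell, with Socs3, a feedback inhibitor of JAK kinases, at -1.19 (adjusted p = 0.00261). Of 78 other induced genes 12 rose and 7 fell, among them Gbp8 at 2.39 (adjusted p = 5.84e-05) and Apobec1 at -0.49. Of all genes 10.9% were called higher and 11.9% lower, and most of these counts lie near those shares.

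In KO astrocytes against APOE33 the called pathway genes all rose: 4 of 7 ligands and receptors, among them Ifnlr1 at 0.86 (adjusted p = 0.00508), 3 of 20 sensing genes, 1 of 15 signalling genes, 1 of 12 brakes and 5 of 76 other induced genes. Of all genes 8.37% were called higher and 8.83% lower. The counts for signalling genes, brakes and other induced genes lie near or below the share called higher. The sensing genes included Unc93b1, which carries Toll-like receptors to endosomes, at 0.91 (adjusted p = 0.00632), and Tmem173 at 0.90. Tmem173 was far higher in microglia than in astrocytes. Microglial markers summed to a median of 599 CPM in KO astrocytes (389 to 693) and 453 in APOE33 astrocytes (316 to 830). The part of microglial RNA in these pathway values was not tested. The signalling gene was Jak1 (0.14) and the brake Tnfaip3 (0.40), and Ifi203 led the other induced genes at 2.72 (adjusted p = 7.45e-05). Against APOE44, KO microglia had 0 higher and 3 lower of 6 ligands and receptors, 3 and 5 of 20 sensing genes, 1 and 5 of 15 signalling genes, 2 and 3 of 12 brakes and 9 and 17 of 78 other induced genes. KO astrocytes had 5 and 1 of 7, 4 and 2 of 20, 1 and 1 of 15, 1 and 1 of 12 and 6 and 0 of 76. The shares of all genes called higher and lower were 13.6% and 13.4% in microglia and 11.0% and 11.8% in astrocytes.

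Of these lists some genes were called for a difference between the cell types in the KO effect, where 12.7% of all genes were called in either direction. It was lower in microglia for 4 of 7 ligands and receptors, among them Ifngr2 (-0.41, adjusted p = 7.43e-05), for 4 of 20 sensing genes, among them Tmem173 (-1.17, adjusted p = 0.000394), and for 7 of 80 other induced genes, with 0, 1 and 2 higher. The APOE44 effect differed for 0 genes of these lists, and the sexes differed for 0. The part of microglial RNA in the astrocyte values of Tmem173 was not tested.

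In comparisons with WT, where batch is confounded, 31 of 77 other induced genes were higher and 13 lower in APOE33 microglia, 47 and 3 in APOE44, and 38 and 11 in KO. Sensing genes were higher for 12, 11 and 11 of 20 and lower for 2, 2 and 3, and signalling genes higher for 8, 9 and 7 of 15 and lower for 1, 0 and 2. Of all genes 22.2%, 22.3% and 20.9% were called higher in these microglia and 22.6%, 23.1% and 21.5% lower. Called in APOE33 were Cd274 (0.92, adjusted p = 3.37e-09) and Ly6e (2.13, adjusted p = 1.07e-08). In astrocytes the other induced genes out of 76 were 14 higher and 8 lower in APOE33, 18 and 11 in APOE44, and 20 and 2 in KO. There 20.1%, 20.6% and 19.4% of all genes were called higher and 18.9%, 21.1% and 18.9% lower. The genes for the receptor subunits Ifnar1 (0.28, adjusted p = 7.47e-06) and Ifnar2 (0.63, adjusted p = 7.58e-06) were both higher in APOE44 than in WT microglia.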

How the data were processed

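RNA from 44 libraries was sequenced as read pairs. Per the submitters' processing notes, reads were aligned with STAR 2.5.3a and counted with featureCounts, and edgeR 3.26.8 was used. The authors' deposited table gives unnormalized read counts for each gene. The only build named is a human one; for the mouse build, the annotation and the strand setting, the entry is: not given in the sources used here. Symbols and positions came from GENCODE M21 (54079 of 54146 identifiers matched). Among counts of 1 to 9, 62.4% to 78.7% were even, as when both mates of a pair are counted, so counts are not independent molecules.

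Groups came from titles. Tests ran in R 4.3.3 with edgeR 4.0.16: filterByExpr, TMM scaling, robust quasi-likelihood F tests with sex as a term, Benjamini-Hochberg adjustment over all genes, calls at adjusted p under 0.05. APOE33, APOE44 and KO were fitted together within a cell type (16 libraries), comparisons with WT used 22, and cell types were compared over 32 or 12. Each SE is the size of the log2 fold change over the root of F; CPM divides by the plain total of each library; per kb divides by exon length. DESeq2 1.42.0, RLE scaling, no low-count filter, no sex term, only the 2 groups compared, a replicate block and leaving out each library were the alternatives. The fitting code was tested on simulated data.

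Members and lists were chosen with earlier results of these data known, and the comparison of the sexes was added after seeing the data. Full statistics are given for up to 6 called members, taken by adjusted p, and where none was called for the 3 of smallest p; library values for those of them in APOE44 or KO against APOE33; up to 3 called genes per pathway list; and the 10 genes most correlated with the members. None of 102 replicate pairs was identical. Members that overlap another gene (Irf7 with Phrf1, Irf9 with Rnf31, Parp9 with Dtx3l, Cxcl10 with Art3, Rtp4 with Masp1) or have close copies (Oas1a, Ifit3 and Ifit3b) may share reads, and Mx2 is annotated as a polymorphic pseudogene. Some genes of the pathway lists are not reported here by name.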

Additional observations from a re-analysis of the deposited data

Results flagged for a closer look

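In groups of 4 to 6 libraries, the gap between the most extreme library and its neighbour was compared with the group's range by Dixon's criterion. For normally spread values, chance alone meets it in about 1 in 20 groups. Of 304 combinations of member and group 22 met it. Members moved together from library to library, so the combinations are not independent and this count cannot be read against that rate. Among the members with values given for every library, astrocyte replicates stood high: Oas3 in WT replicate 3 at 2.01 CPM, Oas3 at 2.76 CPM and Ifi27l2a at 2.54 CPM in APOE33 replicate 2, and in APOE44 replicate 6 Oas2 at 3.63 CPM, Oas3 at 2.88 CPM, Ifi27l2a at 3.10 CPM and Zbp1 at 1.71 CPM. In microglia KO replicate 4 stood low, with Ifit2 at 11.5 CPM and Stat2 at 73.0 CPM.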

How the results depend on the processing

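For genotypes within batch 1, and for astrocytes against WT, counts of members called were 0 to 8, and many moved with the setting; the cause was not tested. By DESeq2 they were 3 for APOE44 against APOE33 microglia, 6 and 11 for KO microglia against APOE33 and APOE44, 3 for KO against APOE33 astrocytes, 13 for APOE44 against WT astrocytes and 4 for female against male astrocytes. With no low-count filter they were 0 for KO against APOE33 in both cell types and for KO against APOE44 astrocytes, and 3, 4 and 3 for APOE33, APOE44 and KO astrocytes against WT. With only the 2 groups compared they were 0 for KO against APOE33 astrocytes and 11 for APOE33 against WT astrocytes. Without the sex term they were 4 and 1 for APOE44 and KO astrocytes against WT and 1 (Ifi44, adjusted p = 0.0252) for the KO effect between cell types. With the replicate block they were 0 for KO against APOE33 and APOE44 in both cell types, 10 for KO against WT microglia, and 3 and 4 for APOE33 and APOE44 against WT astrocytes. Over all genes, deviations of same-numbered libraries correlated above 0.1 in at most 3 pairs of any 2 groups compared within a cell type and in 3 of 22 pairs across cell types (-0.178 to 0.206), so the numbers were not taken to pair samples. This check cannot exclude that same-numbered libraries of the 2 cell types share a mouse. They share the labelled sex, and their members' mean deviations correlated at r = 0.514. With the replicate block, which pairs them by number, the counts between cell types were 31 in batch 1 and 29 in WT.

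Leaving out single libraries gave 0 to 3 members for KO against APOE33 microglia, 1 to 11 for KO against APOE44 microglia, 0 to 3 and 0 to 1 for KO astrocytes against APOE33 and APOE44, 3 to 10, 3 to 20 and 2 to 13 for APOE33, APOE44 and KO astrocytes against WT, and 0 to 1 for the sexes in astrocytes. Zbp1 in APOE44 against APOE33 astrocytes ran from -0.04 (reversed, without APOE44 replicate 6) to 0.92 (without APOE33 replicate 2). The positive sign of all 38 members in APOE44 against APOE33 microglia held in each alternative other than leaving out libraries, where at least 37 were positive. Its dependence on the 2 male APOE33 libraries together was not tested. Counts for APOE33 and APOE44 against WT microglia and between the cell types stayed within 1.5 times. Members under 1 CPM, such as Oasl1 and Ifi44 in microglia, are the least precise.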
